A study of Mus musculus with 6 samples.

Results

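Retinoic acid is made, carried, sensed and destroyed by a small set of proteins, and 9 of their genes were followed here through 3 cell populations of the mouse hair follicle. The genes were Dhrs3, Aldh1a1, Aldh1a3, Cyp26b1, Crabp1, Crabp2, Rara, Rarb and Rarg. Every probe set that the platform annotation pairs with one of these symbols was taken, which gave 12 probe sets of 9 genes among 45037 probe sets and 18193 genes. Aldh1a3 had 3 probe sets, Rarg had 2 and each of the other genes had 1.

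HF-TAC denotes transient-amplifying matrix cells, which divide at the base of a growing follicle; they were sorted on GFP, integrin α6 and ephrinB1 at postnatal days 28 to 30. Activated hair follicle stem cells (aHF-SC) came from mice of the same age, with GFP, integrin α6 and CD34 as the sorting markers. Quiescent hair follicle stem cells (qHF-SC) were sorted at postnatal days 52 to 60 with integrin α6 and CD34. All came from back skin of untreated female CD-1 mice, and each population had 2 Affymetrix arrays. The labels do not say what carried GFP, which side of each gate was kept, or whether the 2 arrays of a group came from separate animals. The p-values therefore reflect only how far such arrays differ, and that spread may be technical. The sorting scheme changes with the population and cannot be told apart from it. Age is shared by HF-TAC and aHF-SC, but in comparisons with qHF-SC it cannot be told apart from the population.

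Vitamin A circulates as retinol, which cells oxidise reversibly to retinaldehyde and then irreversibly to retinoic acid. Retinoic acid enters the nucleus and binds receptors that sit on DNA as pairs with retinoid X receptors, at repeated hexamers called retinoic acid response elements. CYP26 enzymes break the acid down, so a cell's exposure depends on its synthesis, its binding proteins and its degradation. In skin, vitamin A deficiency and retinoid excess both disturb epidermal differentiation and hair growth.

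The promoters of 3 of the genes are shown because the results turn on them in different ways. Aldh1a1 had the widest difference between HF-TAC and aHF-SC among the brightest probe sets of the 9 genes, Cyp26b1 the widest fall in HF-TAC against qHF-SC, and Rarb carried the only paired element found. The sequences are RefSeq windows of 300 bases on GRCm38.p6, from 250 bases before to 50 after an annotated start, written along the gene's own strand. The windows lie at chr19:20601718-20602017 on the plus strand for the second annotated start of Aldh1a1, at chr6:84593761-84594060 on the minus strand for Cyp26b1 and at chr14:16575427-16575726 on the minus strand for Rarb. Capitals mark retinoid hexamers in Aldh1a1 and Rarb and the letters TATAAA in Cyp26b1.
Aldh1a1: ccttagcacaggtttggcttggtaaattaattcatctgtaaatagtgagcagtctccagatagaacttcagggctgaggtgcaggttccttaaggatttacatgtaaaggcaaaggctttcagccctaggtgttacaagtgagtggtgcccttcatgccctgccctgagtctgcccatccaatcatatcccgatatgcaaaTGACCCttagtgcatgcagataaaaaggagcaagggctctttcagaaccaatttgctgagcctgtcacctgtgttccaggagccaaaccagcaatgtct
Cyp26b1: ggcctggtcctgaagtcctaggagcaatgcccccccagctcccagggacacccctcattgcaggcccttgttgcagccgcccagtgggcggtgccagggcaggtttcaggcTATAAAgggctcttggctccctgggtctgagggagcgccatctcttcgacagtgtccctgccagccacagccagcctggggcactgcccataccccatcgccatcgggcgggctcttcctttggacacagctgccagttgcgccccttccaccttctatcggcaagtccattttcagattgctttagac
Rarb: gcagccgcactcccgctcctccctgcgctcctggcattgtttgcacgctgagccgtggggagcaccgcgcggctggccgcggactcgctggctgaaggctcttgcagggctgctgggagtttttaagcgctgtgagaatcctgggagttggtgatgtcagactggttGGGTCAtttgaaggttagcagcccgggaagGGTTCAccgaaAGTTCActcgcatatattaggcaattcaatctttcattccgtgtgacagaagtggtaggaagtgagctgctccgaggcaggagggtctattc

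A retinoid hexamer was taken as AGGTCA, as AGTTCA with T in place of the inner G, as GGGTCA with G in the first place, or as GGTTCA with both, on either strand. At least 1 was found in 43.7% of 32851 promoter windows. A direct repeat of 2 such hexamers with 5 bases between them was found in 0.0974% of the windows, with 2 bases between in 0.268% and with 1 between in 0.222%. The Rarb window held 3 hexamers, and 2 of them formed such a repeat, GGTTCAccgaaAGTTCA, at positions -53 to -37 relative to the start. No other direct repeat at these spacings was found in the 14 windows of the retinoic acid genes. The spacing of 5 is that of the textbook retinoic acid response element of the Rarb promoter. The Cyp26b1 window held no hexamer in these spellings, while TATAAA, present in 13.6% of windows, lay at positions -139 to -134 from that window's start. The annotated 5' end of the gene, at chr6:84593908, lies upstream of that start and nearer to these letters. In Aldh1a1, 1 of 2 windows held a hexamer, read as TGACCC on the strand shown. Windows were matched for 7 of the 9 genes, 14 in all, and Aldh1a3 and Crabp2 were not among them. Such matches describe letters only and do not by themselves show a site that is bound.

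Before the genes are compared, the populations were checked against the proteins they were sorted by and against marker lists. Cd34 had intensities of 15.3 and 25.7 in HF-TAC, against 2385 and 3250 in aHF-SC and 7186 and 8557 in qHF-SC. Itga6, the integrin α6 subunit by which all populations were sorted, had 1070 and 854 in HF-TAC, 2772 and 2277 in aHF-SC, and 2812 and 2120 in qHF-SC. It was lower in HF-TAC than in aHF-SC (adjusted p = 0.00473) and qHF-SC (adjusted p = 0.00304). Efnb1, which encodes ephrinB1, had 845 and 1010 in HF-TAC, 727 and 795 in aHF-SC, and 581 and 421 in qHF-SC. It was higher in HF-TAC than in qHF-SC (adjusted p = 0.0151) and did not pass against aHF-SC (adjusted p = 0.515). Against aHF-SC, HF-TAC was lower in 12 of 12 genes of the bulge stem cell list and higher in 8 of 11 matrix genes. Markers of other compartments were present in HF-TAC as well. The summed intensity of 8 genes of the infundibulum, isthmus and sebaceous gland was 23607 to 41360 in HF-TAC, against 4249 to 4766 in aHF-SC and 4144 to 5595 in qHF-SC, and Mc5r was at background in every group. Defb6 (22654 and 11345) and Krt79 (11194 and 6644) made up most of the HF-TAC sums. Of the 8 genes, 5 were higher in HF-TAC than in each stem cell group and 3 did not pass. The sum for 9 genes of differentiated keratinocytes was 23141 to 35954 in HF-TAC, 13125 to 15320 in aHF-SC and 26935 to 27363 in qHF-SC, with none at background. The sum for 10 dermal papilla genes was 186 to 197 in HF-TAC, 145.0 to 146 in aHF-SC and 147 to 149 in qHF-SC, with Sox2, Corin, Fgf10, Rspo3, Tbx18 and Fgf7 at background throughout. Sums of the inner root sheath list were 5971 to 12004 in HF-TAC, 793 to 951 in aHF-SC and 321 to 378 in qHF-SC, and those of the hair shaft list 6576 to 14677, 604 to 746 and 602 to 741 in the same order of groups. Krt25, Krt35 and Krtap8-1 of these lists were higher in aHF-SC than in qHF-SC (adjusted p = 0.0143, 0.0102 and 0.00697). In that comparison 4 of 9 inner root sheath genes were higher and 0 lower. Of 8 hair shaft genes, 2 were higher, 1 was lower and 5 did not pass. The dermal fibroblast sums were 3944 to 6385 in HF-TAC, 1179 to 1418 in aHF-SC and 1020.0 to 1088 in qHF-SC. Dcn, at 3646 and 5927, made up most of the HF-TAC sums, and Lum, Pdgfra and Dpt were at background in every group. Of the 8 fibroblast genes, 1 was higher and 1 lower in HF-TAC than in aHF-SC, and 6 did not pass. Against qHF-SC, 1 was higher, 2 were lower and 5 did not pass. The median log2 differences of these genes were -0.35 and -0.13 in that order, so the list as a whole was not higher in HF-TAC. The muscle sums were 390.1 to 532 in HF-TAC, 2328 to 4578 in aHF-SC and 211 to 228 in qHF-SC, with Myh4 at background. The medians of that list lay closer, at 43.6 to 47.0 in HF-TAC, 49.5 to 55.6 in aHF-SC and 36.8 to 41.7 in qHF-SC. Of its 6 genes, 2 were higher in aHF-SC than in qHF-SC and 4 did not pass. The part of these other compartments in the results was not tested. In sorted cells in bulk, fewer cells of a type and less RNA per cell cannot be told apart.

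**Figure D1:**
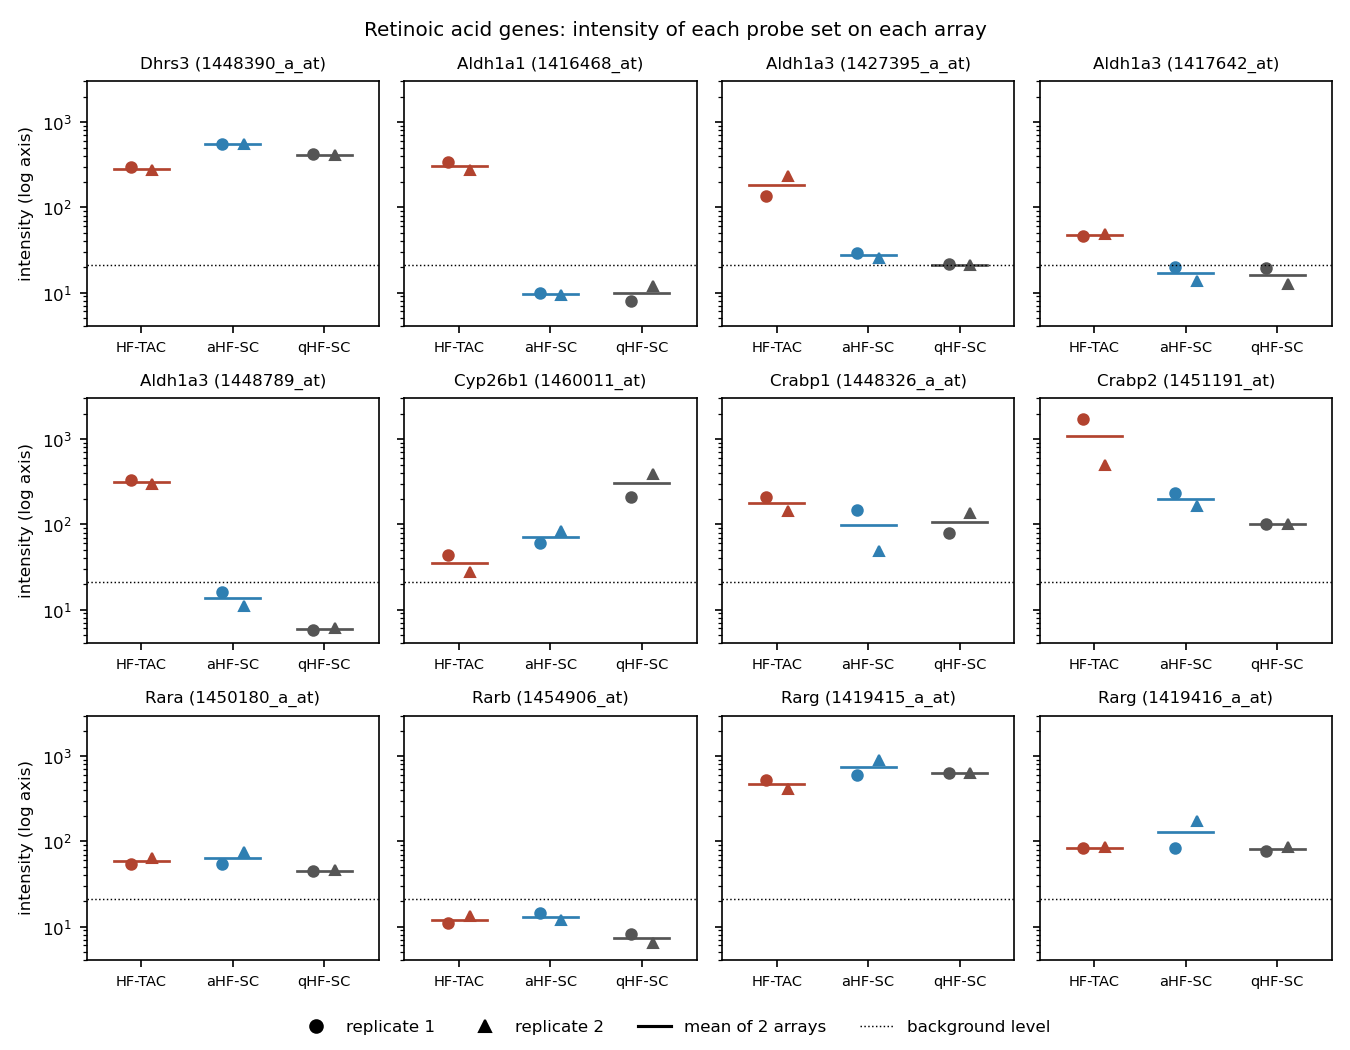
Intensity of each of the 12 probe sets (log axis) on the 2 arrays of HF-TAC, aHF-SC and qHF-SC, with replicates as points, group means as bars and the background level of 21.2 as a dotted line. Aldh1a1 and the Aldh1a3 probe set 1448789_at stand above the line in HF-TAC and below it in both stem cell groups, Cyp26b1 is brightest in qHF-SC, and Rarb lies below the line on all 6 arrays.

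Values are intensities on a linear scale as deposited, and the background level was set at 21.2, the highest median on any array of a list of non-skin transcription factors or of a list of erythroid genes. This level is lenient. Only 7 of 14 non-skin factors had means at or below it in each group, and every array median (22.8 to 23.9) was above it. Intensities little above it may not be readable, as for Cyp26b1 in HF-TAC, Stra6 and Rdh9 in aHF-SC, and Hsd17b2. Folds that rest on them are uncertain in size. Differences are on the log2 scale from 1 limma fit of all 6 arrays, with standard errors (SE), and p-values were adjusted by Benjamini-Hochberg over 45037 probe sets. Where a gene had several probe sets, its call is that of the brightest. Between HF-TAC and aHF-SC, 3 of the 9 genes were higher in HF-TAC (Aldh1a1, Aldh1a3 and Crabp2), 1 was lower (Dhrs3) and 5 did not pass, where 16.3% of all genes passed (8.25% higher and 8.06% lower). Between HF-TAC and qHF-SC, 4 were higher and 2 lower, with 25.7% of all genes past the threshold (13.1% higher and 12.6% lower). The same 3 genes and Rarb, whose arrays were all at background, made up the higher ones, and Cyp26b1 and Dhrs3 the lower ones. Between aHF-SC and qHF-SC, 1 gene was lower in aHF-SC (Cyp26b1) and 1 was higher (Rarb), against 6.3% of all genes (3.08% higher and 3.22% lower). The median log2 difference of the 9 genes was -0.11, 0.73 and 0.37 in these comparisons in that order, beside -0.01, -0.01 and 0.00 over all genes. The medians of -0.11 and 0.73 are the values of Rarb itself. Its arrays were all at background, so these medians cannot be read as a shift of the set. The arrays did not overlap between the groups for 6 of 9 genes in HF-TAC against aHF-SC, 9 in HF-TAC against qHF-SC and 6 in aHF-SC against qHF-SC, where 54.3%, 61.2% and 50.8% of all genes did not overlap. These comparisons share groups and are not independent of each other.

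**Figure D2:**
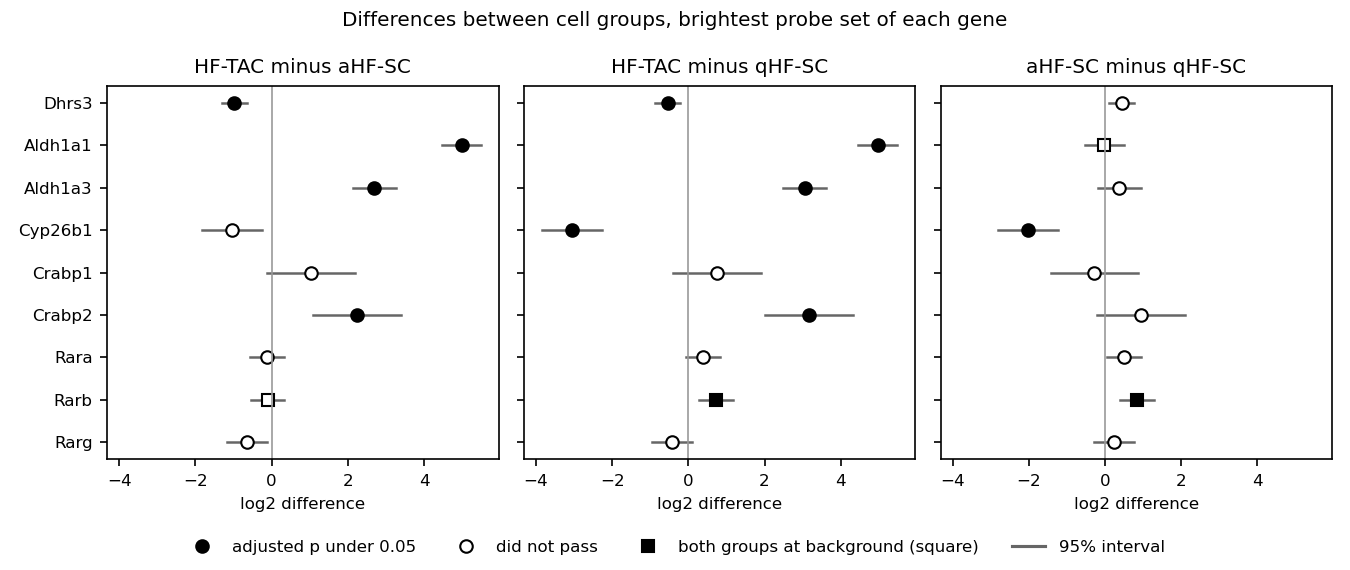
Log2 difference of the brightest probe set of each gene in HF-TAC against aHF-SC, HF-TAC against qHF-SC and aHF-SC against qHF-SC, with 95% intervals from the limma fit; filled symbols passed an adjusted p of 0.05 and squares mark pairs of groups that were both at background. Aldh1a1, Aldh1a3 and Crabp2 lie right of 0 in both comparisons of HF-TAC, and Cyp26b1 lies left of 0 in both comparisons against qHF-SC.

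Both enzymes of the set that make retinoic acid from retinaldehyde were higher in HF-TAC than in either stem cell group. Aldh1a1, a cytosolic retinaldehyde dehydrogenase, had intensities of 336 and 272 in HF-TAC, against 9.82 and 9.28 in aHF-SC and 7.92 and 11.8 in qHF-SC. All 4 stem cell arrays were below the background level, so only a bound can be given there. Set against that level, Aldh1a1 was at least 14.2-fold higher in HF-TAC than in either stem cell group. The fitted log2 differences were 4.98 ± 0.22 against aHF-SC (SE, limma adjusted p = 8.71e-05) and 4.97 ± 0.22 against qHF-SC (adjusted p = 3.17e-05), and both passed without any 1 array. With a pseudocount of 16 they were 3.64 and 3.63. Between aHF-SC and qHF-SC the difference was -0.02, with a 95% interval from -0.52 to 0.49, and both groups were at background.

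Aldh1a3, the related enzyme known from sensory and epithelial tissues, was read by 3 probe sets. The brightest, 1427395_a_at, had intensities of 136 and 230 in HF-TAC, 29.3 and 25.7 in aHF-SC, and 21.7 and 20.9 in qHF-SC. It was 6.45-fold higher in HF-TAC than in aHF-SC (log2 difference 2.69 ± 0.24, SE, adjusted p = 0.00079) and 8.33-fold higher than in qHF-SC (3.06 ± 0.24, adjusted p = 0.000182). The qHF-SC mean of 21.3 was barely above the background level of 21.2, so the second fold rests on a dim level that can hardly be read. The arrays of HF-TAC lay apart from all others, although the 2 HF-TAC arrays themselves differed by 1.69-fold.

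The probe set 1448789_at had 329 and 296 in HF-TAC, against 15.9 and 11.1 in aHF-SC and 5.76 and 6.04 in qHF-SC. Both stem cell groups were at background there, and the level in HF-TAC was at least 14.7-fold higher. The third probe set, 1417642_at, had 46.7 and 48.2 in HF-TAC, 19.9 and 13.8 in aHF-SC, and 19.5 and 12.6 in qHF-SC, which makes HF-TAC at least 2.23-fold higher. All 3 probe sets passed in both comparisons of HF-TAC, with log2 differences of 1.52 to 4.56 against aHF-SC and 1.60 to 5.73 against qHF-SC. For 1417642_at and 1448789_at those differences rest on stem cell intensities at background, so only their direction and the bounds above can be read. On leaving out aHF-SC replicate 2, the call of 1417642_at against aHF-SC was lost (adjusted p = 0.0566). Between the stem cell groups 1427395_a_at differed by 0.37 with an interval from -0.20 to 0.93 (adjusted p = 0.518), and 1448789_at passed (adjusted p = 0.0188) on intensities that were at background in both groups, a call lost with a pseudocount of 16 (adjusted p = 0.122) and on leaving out aHF-SC replicate 1 (adjusted p = 0.0796), qHF-SC replicate 1 (adjusted p = 0.0937) or qHF-SC replicate 2 (adjusted p = 0.123).

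Dhrs3, which reduces retinaldehyde back to retinol and so draws substrate away from the dehydrogenases, went the other way. Its intensities were 295 and 271 in HF-TAC, 560 and 559 in aHF-SC, and 419 and 406 in qHF-SC. The 3 groups did not overlap, and replicates differed by far less than the groups did. HF-TAC was 1.98-fold lower than aHF-SC (log2 difference -0.98 ± 0.14, SE, adjusted p = 0.00441), a call kept under every alternative tried. HF-TAC was 1.46-fold lower than qHF-SC (-0.54 ± 0.14, adjusted p = 0.0317). That call did not hold without any 1 of the 6 arrays, with adjusted p-values from 0.0523 without an aHF-SC array to 0.147 without HF-TAC replicate 2, nor with an intensity trend and robust prior (adjusted p = 0.0511). In aHF-SC, Dhrs3 was brighter than in qHF-SC by 0.44, with an interval from 0.11 to 0.77, and did not pass (adjusted p = 0.143).

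Cyp26b1, the P450 enzyme that oxidises retinoic acid to inactive products, was brightest in quiescent stem cells. Its intensities were 43.4 and 27.4 in HF-TAC, 59.7 and 83.8 in aHF-SC, and 212 and 392 in qHF-SC. No array of one population overlapped with another, and the order was qHF-SC, then aHF-SC, then HF-TAC. HF-TAC was 8.35-fold lower than qHF-SC (log2 difference -3.06 ± 0.34, SE, adjusted p = 0.000761), which held under every alternative tried. Against qHF-SC, the activated stem cells were 4.07-fold lower (-2.03 ± 0.34, adjusted p = 0.0189). This second call was lost at -1.58 when qHF-SC replicate 2 was left out (adjusted p = 0.123). On leaving out aHF-SC replicate 1 it was -1.78 (adjusted p = 0.104), and on leaving out aHF-SC replicate 2 it was -2.27 (adjusted p = 0.0565). With a pseudocount of 16 its adjusted p was 0.0775. Between HF-TAC and aHF-SC the difference was -1.03, with an interval from -1.82 to -0.25, and did not pass (adjusted p = 0.105).

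The cytosolic binding proteins differed between each other in their pattern. Crabp2, which carries retinoic acid to its nuclear receptors, had intensities of 1708 and 492 in HF-TAC, 233 and 163 in aHF-SC, and 102 and 101 in qHF-SC. Every HF-TAC array was above every stem cell array, and HF-TAC replicate 1 was 3.47-fold brighter than replicate 2. HF-TAC was 9.05-fold higher than qHF-SC (log2 difference 3.18 ± 0.50, SE, adjusted p = 0.0035) and 4.70-fold higher than aHF-SC (2.23 ± 0.50, adjusted p = 0.0266). HF-TAC replicate 1 sets much of the size. Without it the differences were 2.28 against qHF-SC (adjusted p = 0.00142) and 1.33 against aHF-SC (adjusted p = 0.0182), and without HF-TAC replicate 2 they were 4.08 (adjusted p = 0.000268) and 3.13 (adjusted p = 0.00101). The call against aHF-SC was lost at 2.49 when aHF-SC replicate 1 was left out (adjusted p = 0.0701) and at 1.98 for replicate 2 (adjusted p = 0.151). It also missed the threshold with either qHF-SC array dropped (adjusted p = 0.0624) and with a pseudocount of 16 (adjusted p = 0.107). Between aHF-SC and qHF-SC, Crabp2 differed by 0.95 (interval -0.21 to 2.10, adjusted p = 0.392), and passed in the fits without 1 of the HF-TAC arrays (adjusted p = 0.0456).

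Crabp1, the other carrier, linked to the storage and breakdown of retinoic acid in the cytosol, passed in no comparison. Its intensities were 212 and 142 in HF-TAC, 146 and 49.2 in aHF-SC, and 78.4 and 135 in qHF-SC. The arrays of aHF-SC lay farther apart from each other than most arrays of different groups. HF-TAC differed from aHF-SC by 1.03 (interval -0.11 to 2.18, adjusted p = 0.28) and from qHF-SC by 0.75 (interval -0.39 to 1.89, adjusted p = 0.38). Without aHF-SC replicate 1 the first of these passed (adjusted p = 0.0358). Between aHF-SC and qHF-SC the difference was -0.28, with an interval from -1.43 to 0.86 (adjusted p = 0.854). Such intervals still allow changes of over 2-fold.

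Of the nuclear receptors, Rara and Rarg passed in no comparison with all arrays, and Rarb lay at background. Rarg, known as the main retinoic acid receptor of epidermis, was read by 2 probe sets. The brighter, 1419415_a_at, had intensities of 524 and 416 in HF-TAC, 596 and 906 in aHF-SC, and 626 and 628 in qHF-SC. HF-TAC arrays were the 2 lowest. The difference from aHF-SC was -0.65 ± 0.22 (SE, adjusted p = 0.119), which passed only without aHF-SC replicate 1 (adjusted p = 0.0452), and the difference from qHF-SC was -0.43 (interval -0.95 to 0.09, adjusted p = 0.259). The other probe set, 1419416_a_at, had 84.2 and 84.9 in HF-TAC, 84.3 and 174 in aHF-SC, and 77.3 and 85.3 in qHF-SC. There 5 of the 6 arrays were nearly level and aHF-SC replicate 2 stood apart, and no comparison passed with all arrays (adjusted p from 0.393 to 0.935). Without aHF-SC replicate 1 this probe set passed against aHF-SC (adjusted p = 0.0225).

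Rara, the receptor expressed in most tissues, had intensities of 53.9 and 64.0 in HF-TAC, 54.4 and 74.2 in aHF-SC, and 44.6 and 46.0 in qHF-SC. Its difference in HF-TAC was -0.11 against aHF-SC (interval -0.56 to 0.33, adjusted p = 0.847) and 0.38 against qHF-SC (interval -0.07 to 0.82, adjusted p = 0.24). Between aHF-SC and qHF-SC it was 0.49 (interval 0.05 to 0.93, adjusted p = 0.228).

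Rarb, the receptor whose own promoter holds the paired element printed above, had 11.0 and 13.1 in HF-TAC, 14.3 and 11.8 in aHF-SC, and 8.20 and 6.40 in qHF-SC. All 6 arrays were below the background level of 21.2. The fit passed Rarb in HF-TAC against qHF-SC (adjusted p = 0.031) and in aHF-SC against qHF-SC (adjusted p = 0.0499), but both groups of each pair were at background, so no fold is given. The first call was lost on leaving out qHF-SC replicate 2 (adjusted p = 0.176) or HF-TAC replicate 2 (adjusted p = 0.154). The second was lost without any 1 of the 6 arrays, with adjusted p-values of 0.0544 to 0.266.

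The 2 HF-TAC arrays differed from each other in ways that touch some of these genes. HF-TAC replicate 1 was the higher array for 5 of 7 infundibulum, isthmus and sebaceous gland genes above background, among them Krt79, Gata6 and Plet1, and lower for Scd1 and Fasn. HF-TAC replicate 2 was higher for 11 of 11 matrix and hair lineage genes. Of the 11 retinoic acid probe sets above background in HF-TAC, 7 were higher in replicate 1 and 4 in replicate 2. Crabp2 was higher by 1.80 on the log2 scale in replicate 1, while the brightest Aldh1a3 probe set was higher by 1.69-fold in replicate 2, and Aldh1a1 differed by 0.31. The part of these cells in the results was not tested.

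**Figure D3:**
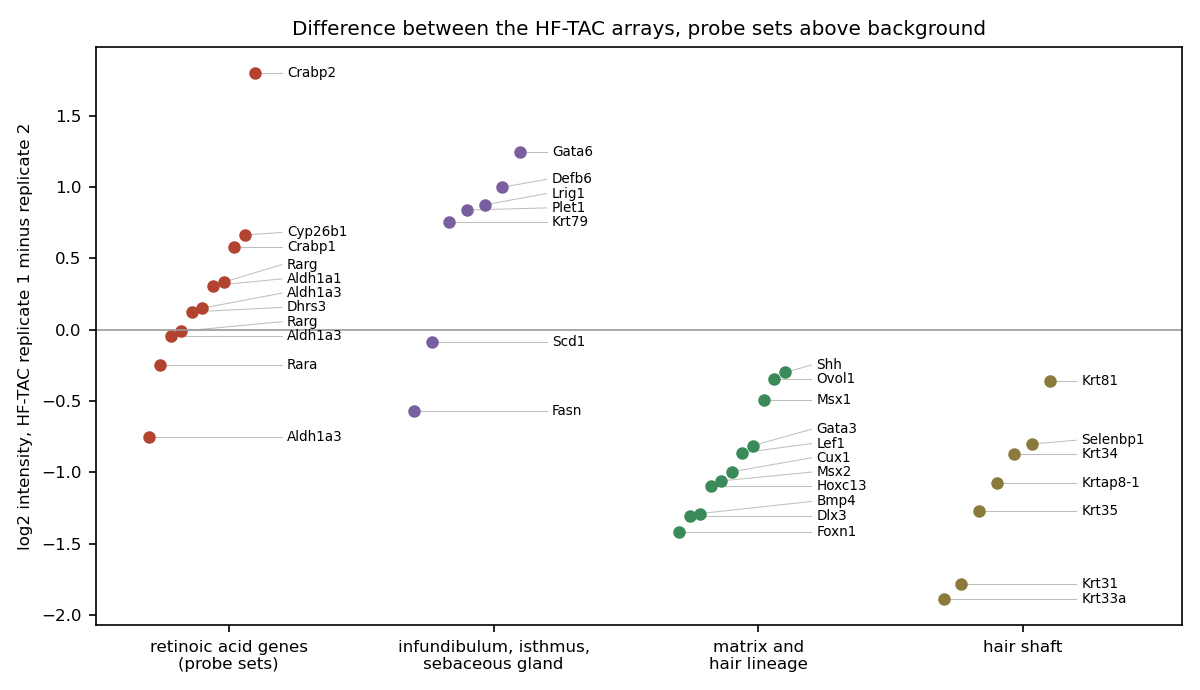
Log2 intensity of HF-TAC replicate 1 minus replicate 2 for the retinoic acid probe sets and for marker genes of the infundibulum, isthmus and sebaceous gland, of the matrix and hair lineage, and of the hair shaft, each point being a probe set above background in HF-TAC. Matrix and hair shaft genes all lie below 0, and Crabp2, at 1.80, lies above it, as do Gata6, Defb6, Lrig1, Plet1 and Krt79, while Scd1 and Fasn of the same list lie below it.

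The genes whose pattern over the 6 arrays was nearest to a member were sought by the distance between log2 values after centring each gene on its own mean, over 18193 genes. Nearest to Aldh1a1 were Krt79, a keratin of the infundibulum, at a distance of 0.63, and Tnfrsf19 at 0.77. Krt79 had 11194 and 6644 in HF-TAC, 399 and 241 in aHF-SC, and 257 and 307 in qHF-SC. Tnfrsf19, a TNF receptor family member also called Troy, had 1231 and 1399 in HF-TAC, 31.5 and 44.2 in aHF-SC, and 49.3 and 56.5 in qHF-SC. Aldh1a1 was below background on the 4 stem cell arrays, so its distances rest partly on values that cannot be read. These are descriptions over 6 arrays in which a gene high in HF-TAC alone will resemble many others.

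Nearest to the brightest Aldh1a3 probe set were Mcm10 at 0.40 and Gins1 at 0.43, both genes of DNA replication. Mcm10 had 239 and 354 in HF-TAC, 65.3 and 49.8 in aHF-SC, and 42.0 and 39.8 in qHF-SC, with the higher value in HF-TAC replicate 2, as for Aldh1a3. Nearest to Crabp2 were Gch1, which starts tetrahydrobiopterin synthesis, at 0.72 and the protease gene Klk8 at 0.79. Klk8 had 1665 and 455 in HF-TAC, 167 and 202 in aHF-SC, and 145 and 119 in qHF-SC, with the higher value in HF-TAC replicate 1, as for Crabp2.

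For Cyp26b1 the nearest were Usp18, an ISG15 protease, at 0.58 and Duoxa1, the maturation factor of a dual oxidase, at 0.59. Duoxa1 had 510 and 347 in HF-TAC, 690 and 849 in aHF-SC, and 3640 and 4378 in qHF-SC, the same order of groups as Cyp26b1. For Crabp1 the nearest were Dpysl3 at 0.69 and Hacd2 at 0.78, farther than for most of the others.

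The rest of the retinoid system was read through 45 measured genes of 5 lists. In HF-TAC, 6 of the 45 were higher and 2 lower than in aHF-SC, and 9 were higher and 0 lower than in qHF-SC, where 8.25% and 13.1% of all genes were higher. In aHF-SC, 1 was higher than in qHF-SC and 0 were lower by limma's adjusted p, where 3.08% of all genes were higher and 3.22% lower. An unadjusted p under 0.05 was seen there for 9 of the 45, and the share of all genes for that was not counted. With a pseudocount of 16, 5 passed in HF-TAC against aHF-SC and 4 in HF-TAC against qHF-SC, against 8 and 9 as reported. The calls lost included Stra6 in both comparisons, Rarres2 in the first, and Sdr16c6, Rdh9 and Hsd17b2 in the second, with adjusted p-values from 0.0591 to 0.118. Leaving out aHF-SC replicate 2 left 5 in the first comparison, and leaving out qHF-SC replicate 1 left 5 in the second. Between aHF-SC and qHF-SC, 0 to 4 passed when an array was left out. The median differences were -0.01, -0.02 and 0.03, beside -0.01, -0.01 and 0.00 over all genes. With 9 genes at background in every group, a part of these lists carried no readable level.

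Of 16 oxidoreductases that interconvert retinol and retinaldehyde, 4 were higher and 1 lower in HF-TAC than in aHF-SC, and 6 were higher than in qHF-SC. Rdh12 had 766 and 448 in HF-TAC, 186 and 188 in aHF-SC, and 194 and 197 in qHF-SC, so that HF-TAC was higher by 1.65 ± 0.24 than aHF-SC (adjusted p = 0.00466) and by 1.58 ± 0.24 than qHF-SC (adjusted p = 0.00311) on the log2 scale (SE). Rdh11, another retinaldehyde reductase, had 301 and 348 in HF-TAC, 165 and 131 in aHF-SC, and 131 and 137 in qHF-SC, with folds of 2.20 (adjusted p = 0.00538) and 2.41 (adjusted p = 0.00181). Both enzymes are known mainly as reductases that return retinaldehyde to retinol, as Dhrs3 does, and they moved opposite to Dhrs3. Their calls were kept under every alternative tried.

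Sdr16c6 and Rdh9 were higher in HF-TAC than in both stem cell groups, and their lower means in aHF-SC than in qHF-SC did not pass (adjusted p = 0.154 for Sdr16c6 and 0.117 for Rdh9). Sdr16c6 had 920 and 321 in HF-TAC, 36.6 and 40.5 in aHF-SC, and 74.3 and 177 in qHF-SC. HF-TAC was 14.1-fold higher than aHF-SC (adjusted p = 0.00363) and 4.73-fold higher than qHF-SC (adjusted p = 0.0201). Without HF-TAC replicate 1 the log2 differences were 3.06 and 1.48, and without HF-TAC replicate 2 they were 4.58 and 3.0, beside 3.82 and 2.24 with all arrays. The call against qHF-SC was lost on leaving out HF-TAC replicate 1 (adjusted p = 0.0714) or, at 1.62, qHF-SC replicate 1 (adjusted p = 0.128), while leaving out qHF-SC replicate 2 gave 2.87. Rdh9, read by a probe set that can match several transcripts, had 182 and 108 in HF-TAC, 26.8 and 28.4 in aHF-SC, and 43.8 and 85.1 in qHF-SC. It was 5.08-fold higher than in aHF-SC (adjusted p = 0.00456), and its call against qHF-SC (2.30-fold, adjusted p = 0.0443) was lost on leaving out qHF-SC replicate 1 (adjusted p = 0.223), HF-TAC replicate 1 (adjusted p = 0.204) or an aHF-SC array (adjusted p = 0.0707), and after quantile normalization (adjusted p = 0.0626). The summed differentiated keratinocyte markers were likewise lowest on the aHF-SC arrays, but HF-TAC (35954 and 23141) and qHF-SC (27363 and 26935) overlapped. Among the oxidoreductases, 10 of the 13 above background were higher in HF-TAC replicate 1 than in replicate 2. Their part in these differences was not tested.

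Among 8 genes of retinol uptake, transport and storage, 1 was higher in HF-TAC than in each stem cell group. This was Stra6, the membrane receptor that takes up retinol from its plasma carrier, with 71.0 and 148 in HF-TAC, 34.2 and 26.4 in aHF-SC, and 30.7 and 37.5 in qHF-SC. The folds were 3.41 against aHF-SC (adjusted p = 0.0126) and 3.02 against qHF-SC (adjusted p = 0.0116). The first was lost when aHF-SC replicate 2 was left out (adjusted p = 0.089), and the second when qHF-SC replicate 1 (adjusted p = 0.0839) or replicate 2 was (adjusted p = 0.0527). Rbp7, a cellular retinol-binding protein, had 27.9 and 13.6 in HF-TAC, 8.57 and 12.1 in aHF-SC, and 7.67 and 10.6 in qHF-SC, with every group mean at background.

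The other retinaldehyde dehydrogenases and Cyp26 enzymes measured, Aldh1a2, Aldh8a1 and Cyp26a1, passed in 0 of 3 comparisons by limma. Between aHF-SC and qHF-SC, 1 of them had an unadjusted p under 0.05, for which the share of all genes was not counted. Aldh1a2, known as the main enzyme of retinoic acid synthesis in the early embryo, had 19.7 and 33.9 in HF-TAC, 27.6 and 32.0 in aHF-SC, and 35.4 and 17.7 in qHF-SC. Those values lie close to the background level and overlap between all groups.

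Of 9 nuclear partners, carriers and coregulators, Fabp5 alone passed, and it did so in each comparison. Fabp5 is a fatty acid-binding protein that can also carry retinoic acid to PPAR-delta. It had 18627 and 20227 in HF-TAC, 9892 and 8694 in aHF-SC, and 4791 and 3746 in qHF-SC. HF-TAC was 2.09-fold higher than aHF-SC (adjusted p = 0.00749) and 4.58-fold higher than qHF-SC (adjusted p = 0.000185), and aHF-SC was 2.19-fold higher than qHF-SC (adjusted p = 0.0147). Its call against aHF-SC was lost when aHF-SC replicate 2 was left out (adjusted p = 0.0589). The call between the stem cell groups was lost on leaving out qHF-SC replicate 2 (adjusted p = 0.11), aHF-SC replicate 1 (adjusted p = 0.0849) or aHF-SC replicate 2 (adjusted p = 0.0545). Read by a probe set that is not marked as able to cross-hybridise, Fabp5 was higher by 3.21 in HF-TAC than in qHF-SC and by 1.75 in aHF-SC than in qHF-SC on the log2 scale, beside 2.20 and 1.13 for the brightest. Rxra, the usual partner of the retinoic acid receptors in skin, had 278 and 283 in HF-TAC, 350 and 576 in aHF-SC, and 370 and 369 in qHF-SC, and passed in no comparison with all arrays (smallest adjusted p = 0.116). On leaving out aHF-SC replicate 1, Rxra passed in HF-TAC against aHF-SC at -1.04 (adjusted p = 0.02).

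Genes known to respond to retinoic acid gave little that passed. Of 9 measured, 4 were at background in every group, 1 was lower in HF-TAC than in aHF-SC (Rarres2), 1 was higher in HF-TAC than in qHF-SC (Hsd17b2) and 0 passed between aHF-SC and qHF-SC by limma (2 had an unadjusted p under 0.05). In HF-TAC, 4 had an unadjusted p under 0.05 against aHF-SC and 1 against qHF-SC. The share of all genes at an unadjusted p under 0.05 was not counted, so these counts cannot be set against it. By limma's adjusted p alone, 16.3% and 25.7% of all genes passed in the comparisons of HF-TAC. Wide differences of Tgm2 and Rarres1 did not pass. Tgm2, read by a probe set that can cross-hybridise, had 109 and 91.3 in HF-TAC, 380 and 593 in aHF-SC, and 168 and 32.2 in qHF-SC. Its adjusted p was 0.0685 in HF-TAC against aHF-SC and 0.0606 in aHF-SC against qHF-SC. Rarres1 had 446 and 123, 55.2 and 43.6, and 120 and 494 in that order of groups (adjusted p = 0.0968 and 0.131). Rarres2, which encodes chemerin, had 46.2 and 44.9 in HF-TAC, 109 and 71.2 in aHF-SC, and 51.1 and 70.2 in qHF-SC. Its call (adjusted p = 0.0428) was lost on leaving out any array but aHF-SC replicate 2, with adjusted p-values from 0.0548 without a qHF-SC array to 0.194 without aHF-SC replicate 1. Another probe set of Rarres2, not marked as able to cross-hybridise, gave a log2 difference of 0.0867, in the opposite direction and not past the threshold. Hsd17b2, a steroid dehydrogenase, had 47.8 and 27.0 in HF-TAC, 29.9 and 20.6 in aHF-SC, and 12.8 and 19.1 in qHF-SC. Its adjusted p of 0.0359 was lost on leaving out qHF-SC replicate 1 (0.205), qHF-SC replicate 2 (0.0599) or HF-TAC replicate 1 (0.161).

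**Figure D4:**
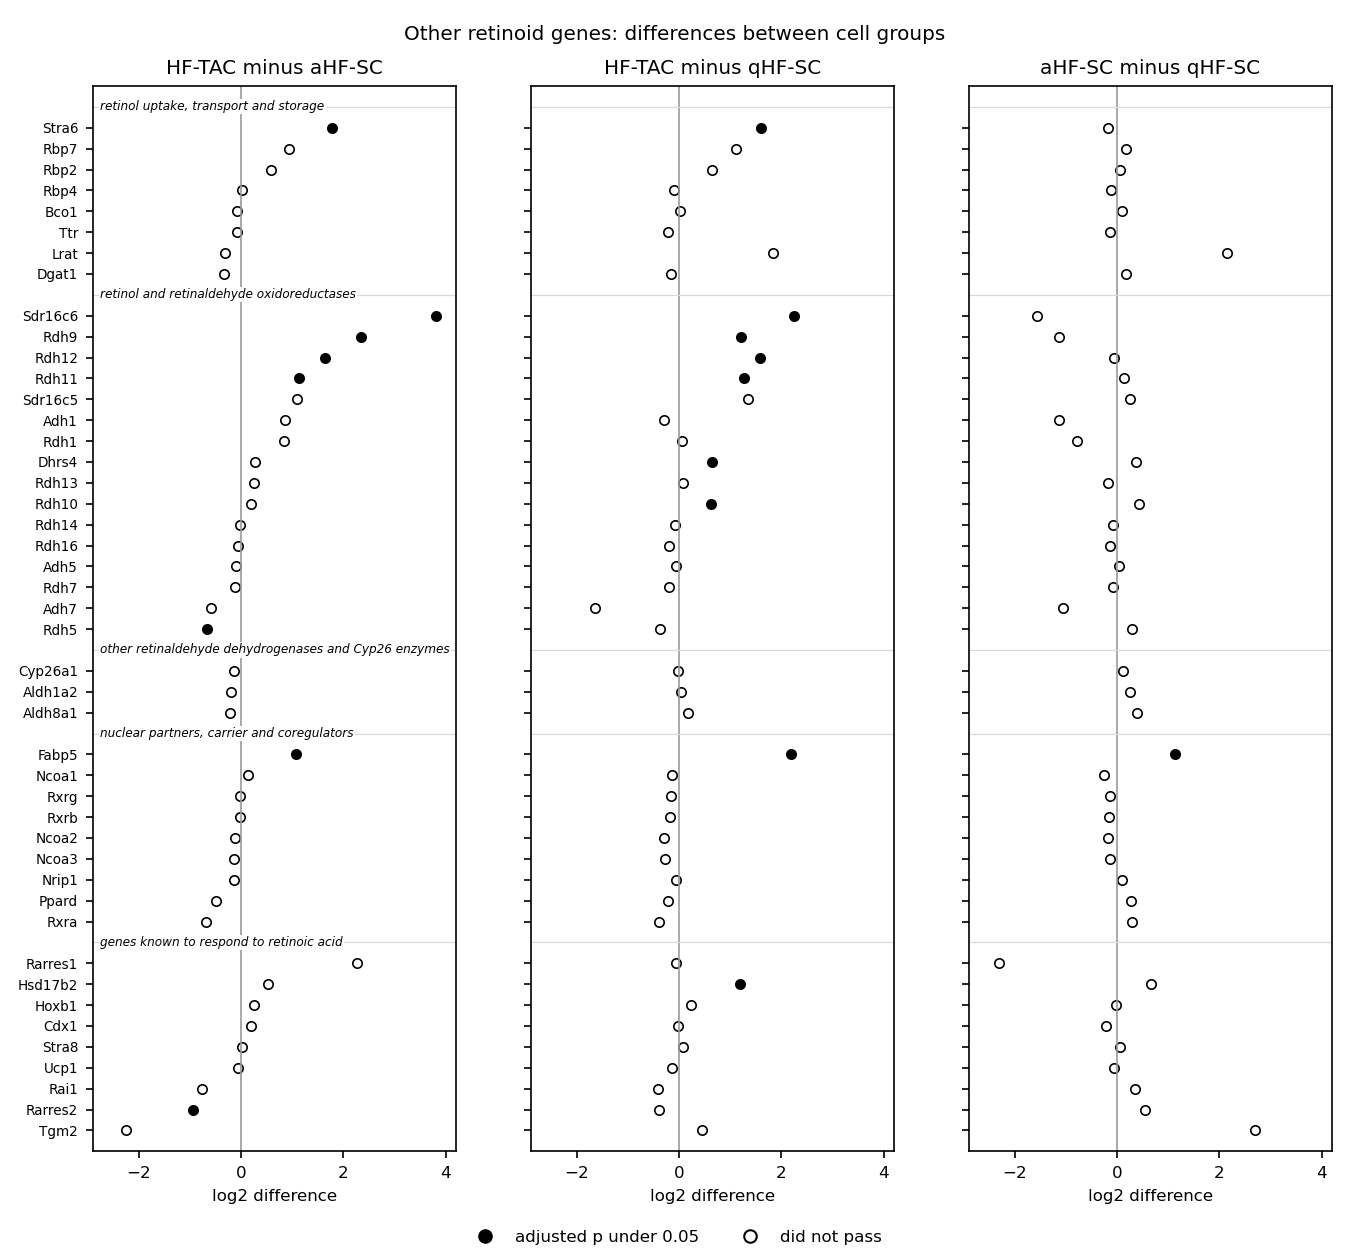
Log2 differences of the 45 other retinoid genes, grouped by list, in HF-TAC against aHF-SC, HF-TAC against qHF-SC and aHF-SC against qHF-SC, with filled points past an adjusted p of 0.05. Sdr16c6, Rdh9, Rdh12, Rdh11, Stra6 and Fabp5 are filled to the right of 0 in both comparisons of HF-TAC, and Fabp5 is the filled point between the stem cell groups.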

How the data were processed

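RNA of 6 samples, 2 each of HF-TAC, aHF-SC and qHF-SC, was read on Affymetrix mouse arrays from cRNA made of 2 µg of RNA per array. The values deposited by the authors are linear probe set intensities. RMA is named, without a version or role, in the submitters' processing notes, and other steps are not given in the sources used. RMA usually compresses large folds and dim signals, and no detection calls were used. For arrays, their number limits the precision. Array medians lay between 22.8 and 23.9.

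Of 45101 probe sets, 64 controls were left out, 34945 of the others had 1 symbol, 932 several and 9160 none. The Entrez IDs of 34741 were found in RefSeq, with 0 symbols differing. Intensities were put on the log2 scale and fitted as group means in limma 3.58.1 (R 4.3.3), with two-sided tests, a threshold of 0.05, 3 residual and 4.64 prior degrees of freedom. The procedure was run beforehand on data simulated with normal noise from the spread that limma had fitted. Such data meet the assumptions of the model, so that run cannot show how the procedure does on real arrays. A gene was represented by its brightest probe set (18193 genes), and lists were described by counts. Array replicates correlated at r = 0.990 in HF-TAC, 0.991 in aHF-SC and 0.991 in qHF-SC across probe sets.

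The members and lists were chosen with earlier results of these data known. Named were all members, up to 4 genes per list past the threshold with the widest difference (where fewer than 2 passed, the 2 genes of smallest p), the 2 nearest genes to each member that differed by at least 1 on the log2 scale, and the sorting markers. Tgm2 and Rarres1 were named besides. Of 51 other retinoid genes listed, 6 were not analysed here. Alternatives varied the normalization, the filter, the pseudocount, the probe sets, the spread, the samples in the fit and the arrays kept.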

Additional observations from a re-analysis of the deposited data

How the results depend on the processing

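The calls of Aldh1a1 and Aldh1a3 in both comparisons of HF-TAC, of Cyp26b1 and Crabp2 in HF-TAC against qHF-SC, and of Dhrs3 in HF-TAC against aHF-SC were kept under every alternative that gave them a value, each array left out in turn included; Dhrs3 has no value without probe sets that can cross-hybridise. The number of member genes past the threshold lay between 3 and 5 for HF-TAC against aHF-SC (4 as reported) and between 4 and 6 for HF-TAC against qHF-SC (6 as reported). For aHF-SC against qHF-SC (2 as reported) it was 1 with 1 probe set per gene, with median centring, with only probe sets above background or with the replicate block, 0 with a pseudocount of 16, 3 without probe sets that can cross-hybridise (Aldh1a3 then passed through another probe set, 1.17, adjusted p = 0.0157, at background in both groups), and 0 to 2 without 1 array. Of all probe sets, 5157 passed for HF-TAC against aHF-SC, 9062 for HF-TAC against qHF-SC and 2259 for aHF-SC against qHF-SC. With 1 probe set per gene, fewer features were tested and 3191, 4790 and 1142 passed in that order, and with the mean of a gene's probe sets 2947, 4446 and 984. A pseudocount of 16 left 895 between aHF-SC and qHF-SC (the cause was not tested). Without 1 array, so with fewer samples, the counts were 2573 to 4503, 5342 to 8551 and 201 to 2472.

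Reversed signs occurred only in differences that had not passed, apart from Rarres2 in HF-TAC against aHF-SC, at 0.0867 without probe sets that can cross-hybridise, where another probe set is read. Aldh1a1 in aHF-SC against qHF-SC was 0.0114 after quantile normalization (the cause was not tested). Without 1 array, the ranges in HF-TAC against aHF-SC were -0.24 to 0.0271 for Rarb, -0.34 to 0.11 for Rara and -1.04 to 0.0045 for Rarg probe set 1419416_a_at, and this probe set ranged from -0.0137 to 0.13 in HF-TAC against qHF-SC. In aHF-SC against qHF-SC they were -0.31 to 0.27 for Aldh1a1, -1.07 to 0.50 for Crabp1, -0.25 to 0.75 for Aldh1a2, -0.23 to 0.40 for Aldh1a3 probe set 1417642_at and -0.0718 to 0.53 for the brighter Rarg probe set. Deviations of same-numbered samples correlated at 0.13 in HF-TAC against aHF-SC, -0.08 in HF-TAC against qHF-SC and 0.07 in aHF-SC against qHF-SC. With so few arrays per group, these correlations cannot decide whether the numbers pair the samples. A fit with the replicate block passed 5045, 9087 and 2248 probe sets and 4, 6 and 1 member genes. Under that block the calls of Rdh9 in HF-TAC against qHF-SC (adjusted p = 0.0608), Rarres2 in HF-TAC against aHF-SC (adjusted p = 0.0607) and Rarb in aHF-SC against qHF-SC (adjusted p = 0.0615) did not pass. Array number and signal over background limit all of these values: Rarb, and Aldh1a1 in stem cells, were below the background level.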
